A study of Homo sapiens with 4 samples.

Results

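The zinc finger genes described here were selected on their symbol, ZNF followed by a number with ZNF598 left out, and on the level of their coding sequence (CDS), which had to hold a deposited count of at least 50 ribosome-protected fragments (RPFs) in every library. The tables listed 259 such ZNF symbols, 215 of them in all 4 libraries, and 56 met the minimum, among 5715 transcripts of any gene that did so. Ribosome profiling was done in HEK293T, an embryonic kidney cell line with the SV40 large T antigen. Untreated cells gave 2 biological replicates, lettered A and B, as did cells given the aminoglycoside G418 at 500 µg/mL, and the labels give 24 hr for both. Cells were lysed with cycloheximide present, and no library came from another genotype or another drug. RPFs on mRNAs numbered 6082600 and 2440204 in untreated cells and 5677910 and 4763858 in G418-treated cells (replicates A and B in each pair).

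Classical zinc fingers are short folds in which a pair of cysteines and a pair of histidines hold a zinc ion, and tandem arrays of them read DNA sequence. Many primate zinc finger proteins also carry a KRAB domain, which binds the corepressor TRIM28 and through it recruits histone methylation to transposable elements and other targets. G418 binds the decoding center of the ribosome, so that some ribosomes read through the normal termination codon (NTC) and continue until the first in-frame termination codon of the 3′UTR (3′TC). The ribosome readthrough score (RRTS) takes the RPF density of this extension as a percent of the density on the CDS.

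The minimum of 50 was decided by the shallowest library. Taken alone, untreated B passed 56 ZNF genes, which were exactly the members, whereas untreated A passed 143, G418 A 143 and G418 B 116. Of the 159 genes listed in all 4 libraries that fell under the minimum, 53 did so in untreated B only. ZNF212, with CDS counts of 113, 50, 114 and 92 in untreated A, untreated B, G418 A and G418 B, and ZNF786, with 98, 52, 86 and 100, lay just inside, and ZNF805, with 83, 47, 73 and 66, and ZNF480, with 154, 46, 153 and 116, just outside. The members were thus chosen by their CDS counts, and CDS levels and their change are given as a description.

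The protein sequences fitted the label for most members. In the GENCODE 44 CDS, which had the deposited CDS length and stop codon for 55 of 56 members, 52 held at least 1 classical finger (2 cysteines 2 to 4 residues apart, then 12 residues, then 2 histidines 3 to 5 residues apart), with a median of 8 fingers and 22 members with 10 or more. The same pattern occurred in 1.76% of the other transcripts with the same minimum. ZNF330, ZNF503 and ZNF703 had none, and 13 members, among them ZNF12, ZNF460, ZNF543 and ZNF689, also had a KRAB pattern in the first 250 residues. Chromosome 19 held 13 members (23.2%, against 5.96% of the other transcripts), chromosome 7 held 10 and chromosome 16 held 6.

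The cell line label was checked on marker genes. VIM was at 639, 658, 558 and 533 RPKM, and the neurofilament genes NEFL and NEFM, which HEK293 lines are known to express, were between 30.5 and 54.2 RPKM in the 4 libraries. KRT18 was at 26.7 to 29.4 RPKM, whereas KRT8 stayed near the lower limit of the tables, at 1.4 to 2.1 RPKM. Of 8 markers of other cell types, PTPRC, CD3E, CD14, ALB, APOA1 and HBB were listed in no library. The fibroblast collagen gene COL1A1 was listed in all 4, at 4.44, 5.54, 3.94 and 3.59 RPKM, and COL3A1 in untreated B, at 1.35 RPKM, and their part in the results was not tested.

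ZNF genes were translated at low levels. The median member had a mean CDS density of 13.9 RPKM over the 4 libraries, against 33.9 RPKM for the other transcripts with the same minimum, and the range ran from 2.05 RPKM (ZNF462) to 241 RPKM (ZNF207). In summed reads, the 56 CDSs took 2592 and 2490 RPM (reads scaled to the mapped reads of each library) in untreated cells and 2545 and 2431 RPM in G418-treated cells, or 2541 ± 72.3 against 2488 ± 80.5 RPM (SD, n = 2 each). The libraries of the groups overlapped. With bulk libraries, fewer cells and less RNA per cell cannot be told apart, and ribosome density was not divided by mRNA levels.

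The most highly translated members were not KRAB proteins. ZNF207, a kinetochore and spindle protein that binds BUB3, was at 267 and 242 RPKM in untreated cells and 235 and 221 RPKM in G418-treated cells, so that both treated libraries lay lower. It alone made up 14.9, 14.1, 13.4 and 13.2% of the members' summed CDS RPM. ZNF24, a SCAN domain repressor, averaged 163 RPKM, and ZNF703, a transcriptional cofactor known from luminal breast cancer, 126 RPKM. ZNF593, whose yeast relative acts in nuclear export of the large ribosomal subunit, averaged 117 RPKM, and ZNF503, a relative of ZNF703, 67.8 RPKM. The plot of CDS density by gene shows these 5 at the top and the span of the others.

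**Figure D1:**
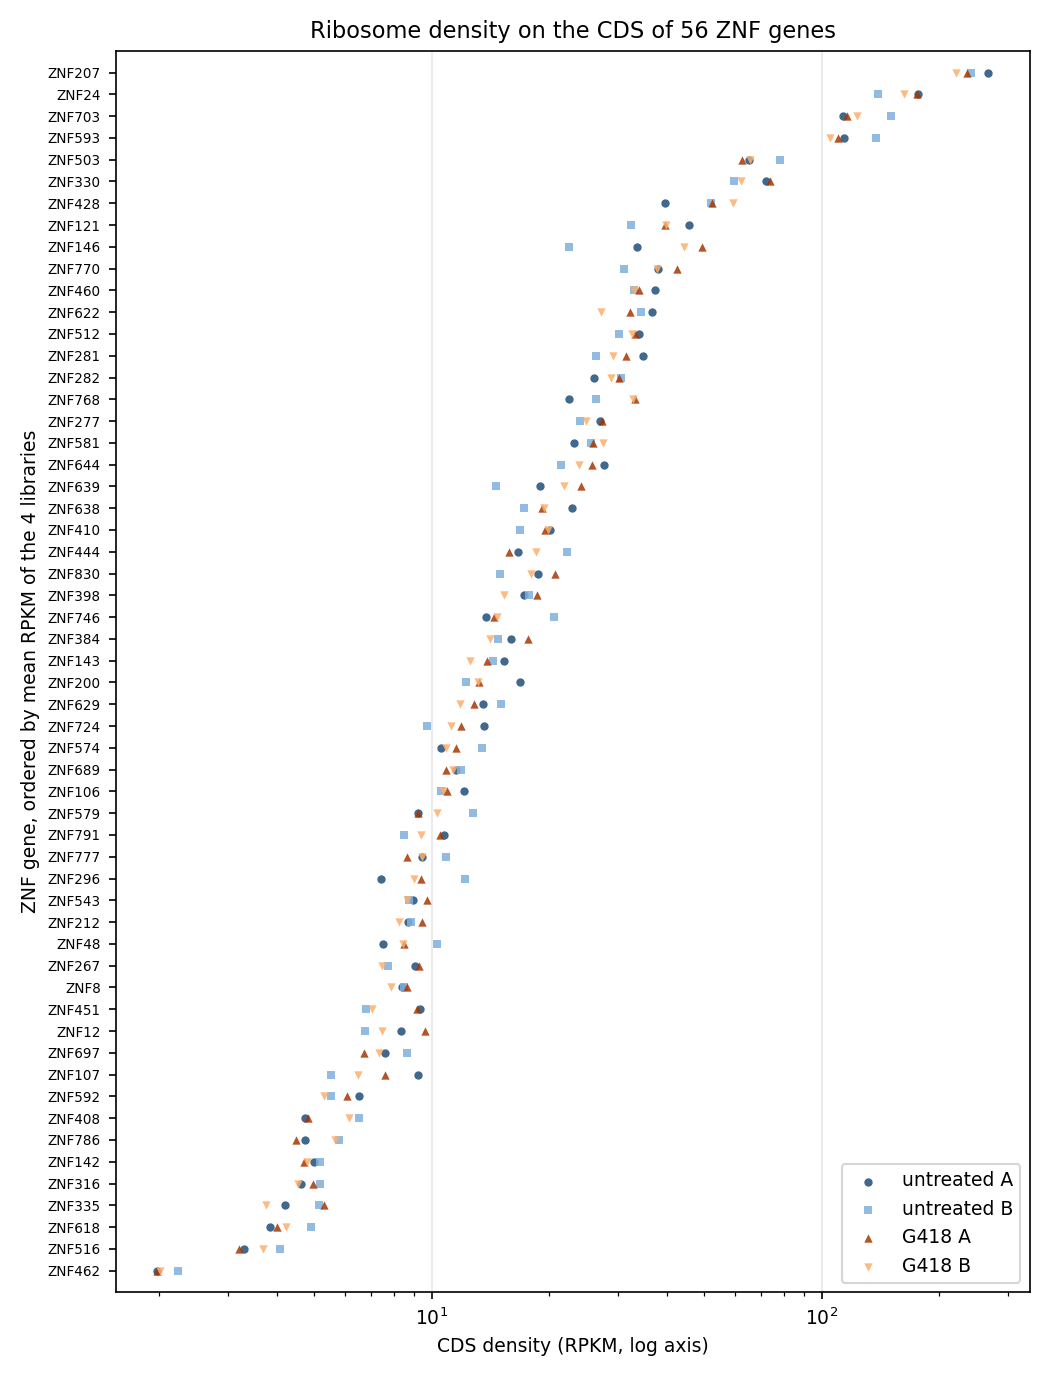
CDS density (RPKM, log axis) of the 56 ZNF genes in each library, ordered by their mean, with 1 symbol per library. ZNF207 leads at 241 RPKM and ZNF462 is lowest at 2.05 RPKM, and for most genes the symbols of untreated and G418-treated libraries are interleaved.

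G418 was compared with untreated cells for CDS counts by edgeR across all 8494 transcripts that passed its filter. Of the 56 members, 2 were higher in G418-treated cells, where 5.31% of all transcripts were, and 0 were lower, where 3.21% of all transcripts were. At an unadjusted p under 0.05, 3 members were higher and 3 lower, where 1079 and 861 of all 8494 transcripts were. DESeq2 called 0 members in either direction, where it called 113 of 8568 transcripts higher and 137 lower. The fitted log2 fold change was below 0 for 46 of 56 members, against 49.6% of all transcripts and 3258 of the 5659 others with the same minimum, but the shift was small, with a median of -0.09 against 0.00 for all transcripts and -0.04 for the others with the same minimum. Scaled by library totals the members' median was -0.01 and that of all transcripts 0.09. Such a scaling moves all transcripts alike, so it cannot change the distance between the medians and is no check of it. The minimum acted through untreated B, which is also a library that the change is measured against, so these counts support no direction. With the minimum applied to the other 3 libraries only, 109 genes passed, of which 72 were below 0, with a median of -0.07.

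ZNF146, which encodes a protein made almost wholly of fingers (10 by the pattern), had CDS counts of 253 and 74 in untreated cells and 348 and 286 in G418-treated cells, and both treated libraries were higher after scaling (23.7 ± 6.58 RPM against 39.5 ± 2.97 RPM, SD, n = 2 each). Its log2 fold change was 0.61 (SE 0.14, edgeR's quasi-likelihood test with Benjamini-Hochberg adjustment, adjusted p = 0.0049). ZNF768, which has 10 fingers by the same pattern, had CDS counts of 319, 163, 442 and 399, or 38.8 ± 4.38 RPM against 52.4 ± 0.574 RPM (SD, n = 2 each), and a log2 fold change of 0.40 (SE 0.12, edgeR adjusted p = 0.040). The groups did not overlap for either gene. DESeq2 made neither call, at log2 fold changes of 0.63 for ZNF146 and 0.37 for ZNF768. Neither call was made when a G418 library was left out. Without G418 A and without G418 B the values were 0.61 and 0.65 for ZNF146, and 0.42 and 0.34 for ZNF768. The value of ZNF768 was 0.19 without untreated A, where its call was also lost, and 0.53 without untreated B. The value of ZNF146 was 0.92 without untreated A and 0.46 without untreated B. ZNF622, the relative of the yeast 60S maturation factor Rei1, had the lowest value of the members, -0.33 (SE 0.12, edgeR adjusted p = 0.072).

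**Figure D2:**
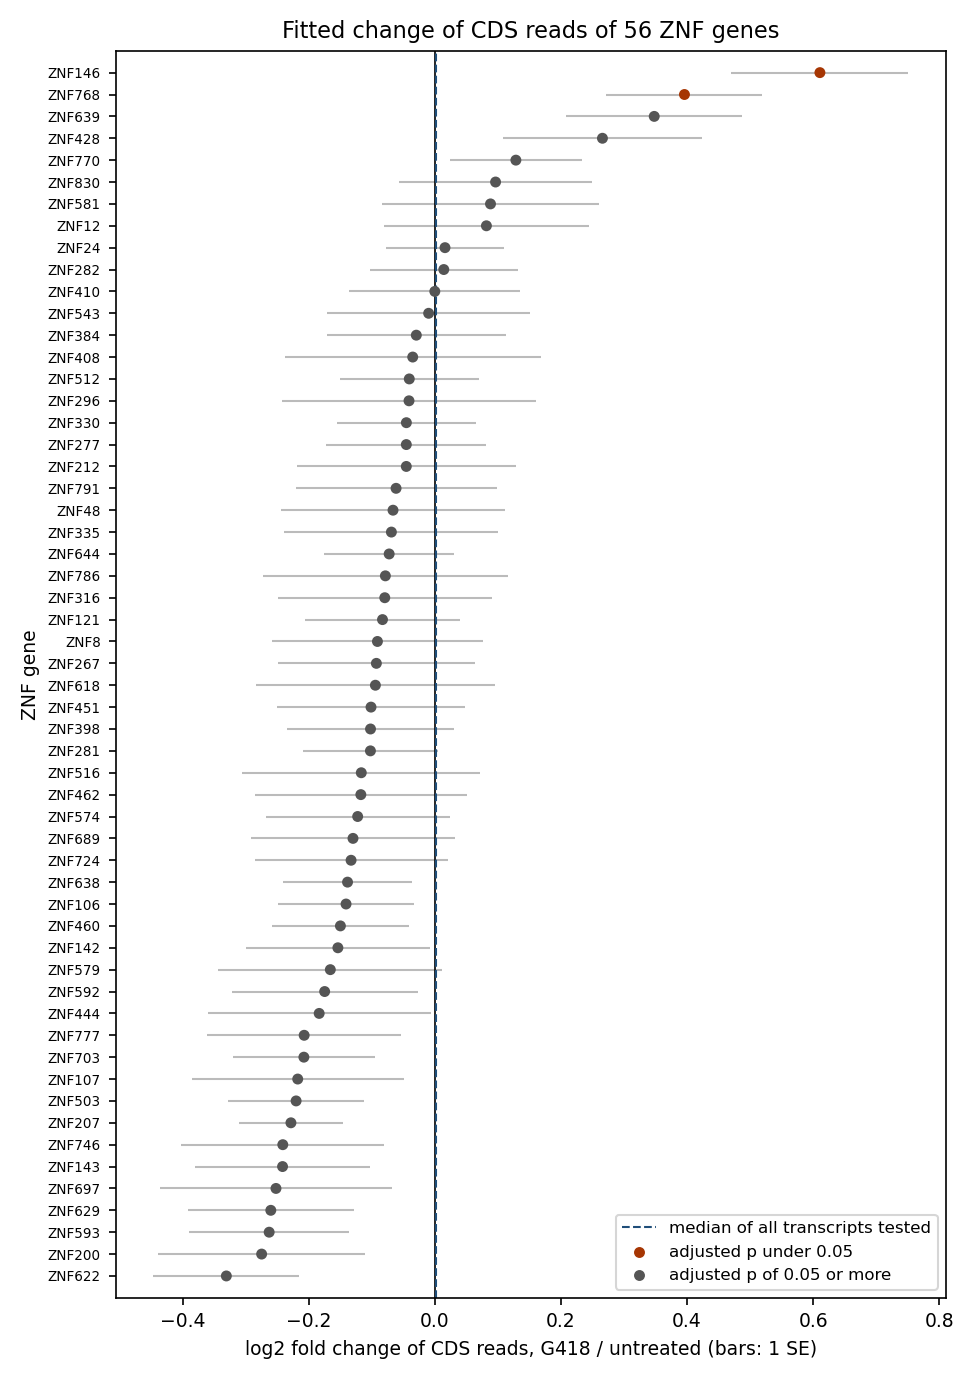
Fitted log2 fold change of CDS reads (G418 over untreated, bars 1 SE) for the 56 ZNF genes in order of their value, with the dashed line at the median of all transcripts tested. ZNF146 (0.61) and ZNF768 (0.40) have an adjusted p under 0.05, and 46 genes lie below 0.

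The corepressors that KRAB domains work through were tested in the same fit. The list named TRIM28, SETDB1, ATF7IP, HP1, the NuRD complex, DNMT1, EHMT1, EHMT2 and SMARCAD1. Of its 20 genes in the fit, 1 was higher and 0 were lower, where 5.31 and 3.21% of all transcripts were. At an unadjusted p under 0.05, 2 were higher and 5 lower, where 1079 and 861 of all 8494 transcripts were, with a median log2 fold change of -0.14. The gene that rose was MBD3, a NuRD subunit, with CDS counts of 194, 82, 255 and 247 and a log2 fold change of 0.49 (SE 0.14, edgeR adjusted p = 0.030). TRIM28 itself had 7954, 3858, 7278 and 6565 CDS reads and a log2 fold change of -0.20 (SE 0.09, edgeR adjusted p = 0.14). Of 6 HUSH and heterochromatin genes, 0 changed (0 at an unadjusted p under 0.05), with a median of -0.14. Among 50 zinc finger genes under other names and 13 with a letter after the number, edgeR called 0, where 5.31% of all transcripts were higher and 3.21% lower, with 6 and 1 at an unadjusted p under 0.05, where 1940 of all 8494 were, and medians of -0.01 and 0.06.

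5′UTR reads were frequent on ZNF mRNAs. Summed over members there were 8.91 and 9.01 5′UTR reads per 100 CDS reads in untreated cells and 9.65 and 9.39 in G418-treated cells, against 4.42, 5.08, 4.22 and 4.33 for the other transcripts with the same minimum. A single gene weighed on the sum. Without ZNF146, which gave 22.7 to 32.3% of the members' 5′UTR reads over the libraries, the values were 6.10, 7.01, 6.79 and 6.85. The median member had 4.37 5′UTR reads per 100 CDS reads and the median of the others was 2.12. The annotated 5′UTR was also longer, at a median of 199 nt against 129 nt, and its part in the read share was not tested. An upstream AUG was present in 40.5% of the 42 members with equal UTR lengths in GENCODE 44 and in 35.95% of such other transcripts.

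ZNF146 carried more reads on its 5′UTR than on its CDS. The transcript (chr19:36214602-36238771, plus strand, hg38) has a 5′UTR of 1449 nt with 20 AUGs, 19 of them followed by an in-frame stop before the annotated start. It held 665, 198, 634 and 494 5′UTR reads, or 263 and 268 per 100 CDS reads in untreated cells and 182 and 172 in G418-treated cells. The groups were apart. This was 1 member lower among 36 tested, where 1.39% of all 4254 transcripts were lower, and 0 members were higher, where 0.0235% were (log2 fold change -0.58, SE 0.10, edgeR adjusted p = 0.018). The call was lost with DESeq2 (adjusted p = 0.14) and without either G418 library (edgeR adjusted p = 0.20 in both), at log2 fold changes of -0.54 to -0.62. The 5′UTR reads alone were at 74.5 and 50.9 RPM in untreated cells and 75.6 and 64.4 RPM in G418-treated cells, so the groups overlapped in the 5′UTR and were apart in the CDS. The same CDS reads enter both calls of ZNF146, which are not independent.

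Among the other members the 5′UTR share ranged widely. ZNF689, a KRAB protein, had 89, 44, 93 and 80 5′UTR reads, or 58.9, 64.7, 69.4 and 62.5 per 100 CDS reads. ZNF410, a protein with 5 fingers that is known to drive CHD4, had 76, 26, 87 and 84, or 30.2, 28.3, 37.99 and 39.3 per 100, with a log2 fold change of 0.39 (SE 0.25, edgeR adjusted p = 0.55). ZNF689 overlapped between conditions and ZNF410 did not. The log2 fold change of the 36 members ran from -0.95 to 0.89, with a median of 0.10 against -0.17 for all transcripts tested, and no member was at an unadjusted p under 0.05 other than ZNF146. ZNF574, with 0, 2, 0 and 1 5′UTR reads, was near the other end, and 3 members had no 5′UTR read in any library.

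**Figure D3:**
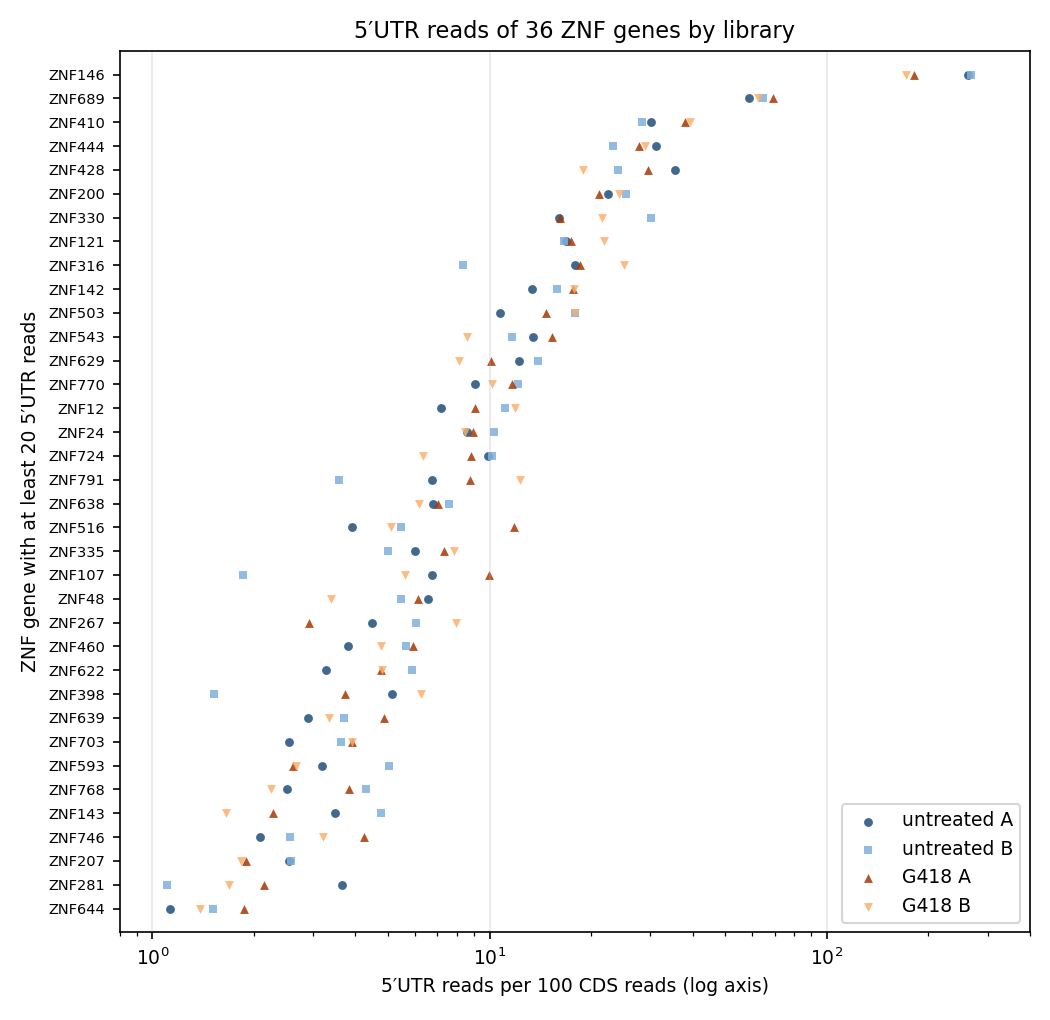
5′UTR reads per 100 CDS reads (log axis) in each library for the 36 ZNF genes with at least 20 5′UTR reads, ordered by their mean. ZNF146 stands far to the right with its untreated libraries (263 and 268) above its G418 libraries (182 and 172), and the symbols of most other genes overlap.

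Reads after the stop codon rose with G418. Between NTC and 3′TC the members held 28 and 13 reads in untreated cells and 243 and 192 in G418-treated cells, where 1298, 574, 1195 and 1061 would be present at the CDS density. The aggregate RRTS, the summed reads over the summed expectation, was 2.16% (95% exact Poisson interval 1.43 to 3.12) and 2.26% (1.21 to 3.87) in untreated cells and 20.3% (17.9 to 23.1) and 18.1% (15.6 to 20.8) in G418-treated cells, an 8.70-fold ratio of means. These intervals cover counting error only. The groups were far apart, by 19.2 ± 1.59% against 2.21 ± 0.076% (SD, n = 2 each). The other 5659 transcripts stood at 1.96, 1.76, 15.7 and 14.9%, an 8.22-fold ratio, so the members' rise was close to that of the rest. No test between the gene groups was made.

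Most single members followed. Pooled over replicates, RRTS was higher with G418 in 48 of 56 members, where 86.2% of all transcripts with the same minimum were higher, and lower in 3 (ZNF121, ZNF207 and ZNF267), where 4.55% were. The other 5 members, ZNF107, ZNF408, ZNF618, ZNF724 and ZNF746, had no read there in any library, where 9.2% of all transcripts had none. Both G418 libraries exceeded both untreated libraries in 29 members, where 68.6% of all transcripts did. Reads were few, with a median of 14.1 reads expected per member at the CDS density over both G418 libraries. In untreated cells 35 members had no such read.

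Density also rose over the rest of the 3′UTR after the first in-frame 3′TC, but to a far lower level. The median member had 15.5 in-frame 3′TCs, so this mean does not measure termination at the first of them. There 54 members had 0.325 and 0.293% of the CDS density in untreated cells and 0.800 and 0.730% in G418-treated cells. The other transcripts with the same minimum had 0.219 and 0.183% in untreated cells and 0.633 and 0.610% in G418-treated cells.

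For the 13 members with at least 10 readthrough reads, edgeR found 11 higher with G418, where 82.6% of 2827 transcripts were higher, and 0 lower, where 0.0707% were. Most of these reads came from G418 libraries, so a member that met the minimum of 10 largely did so because it had readthrough. The count and the adjusted p of each of the 13, given below, are therefore a description. With untreated counts of 0 set to 3 reads over the group, the median fold was 5.85 for these members and 6.38 for all transcripts tested. DESeq2 called 6 of the 13, where it called 1408 of 2827 transcripts higher.

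The stop codons of 5 members called higher are printed for comparison with those of ZNF24, which was tested and not called, and of ZNF207 and ZNF146, which had under 10 readthrough reads and were not tested. Each runs 5′ to 3′ on the sense strand from 15 nt before the NTC, with the NTC and the next nucleotide in capitals and T for U, from GENCODE 44. ZNF703 and ZNF460 (both UAAC), ZNF410 (UGAG), ZNF444 (UAGC), ZNF543 (UGAA) and ZNF689 (UAGA), also called higher, are not printed. ZNF212 (UAAG), tested and not called, is not printed either. The printed set is thus no sample of stop codons.
ZNF593: atggatacctctaccTGACatggcctgaag
ZNF282: cctcctgagcgagacTAGGgctgggctggg
ZNF581: cggtggaagcatccaTGAGccgggctgccg
ZNF503: gcgctggggtatcagTGAGggcggccggga
ZNF622: gtccaagtgagattcTGAGagtctgctggg
ZNF207: tcgcaagccctgccaTAGGacaggctgagg
ZNF24: aatgttgtgaaagttTAAGaaattgaaaaa
ZNF146: aaaattcatactcacTAAAaaccccatgaa

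ZNF593 was the member with the most readthrough reads. Its NTC is at chr1:26170714-26170716 (hg38, plus strand), a UGAC, and the 3′TC leaves a region of 39 nt. It held 5 and 0 readthrough reads in untreated cells and 33 and 32 in G418-treated cells, with 378, 199, 343 and 299 CDS reads. RRTS was 12.6, 0, 91.5 and 102%, so that with G418 the short extension was as densely covered as the CDS. The rise was 11.6-fold (95% exact counting interval 4.74 to 37.1, edgeR adjusted p = 1.5e-10). All untreated reads were in untreated A, and the fitted log2 fold change of 3.49 was 7.83 without that library, where no untreated read is left and the value depends on the prior count, and 2.90 without untreated B.

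ZNF282, known for binding a retroviral promoter, ends in UAGG at chr7:149224645-149224647 (plus strand) with a region of 336 nt. It held 5, 0, 25 and 28 readthrough reads and an RRTS of 6.39, 0, 29.3 and 37.6%, with both G418 libraries well above both untreated libraries. The rise was 7.85-fold (3.16 to 25.2, edgeR adjusted p = 9.3e-07). Here too untreated A held every untreated read, and the fitted log2 fold change of 2.93 was 7.48 without it and 2.35 without untreated B.

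ZNF581 (UGAG, chr19:55645163-55645165) had 0, 0, 17 and 9 reads and 104 and 57.1% RRTS with G418. The lower limit of its 95% exact counting interval was 4.70-fold (edgeR adjusted p = 1.9e-05). ZNF622 (UGAG, chr5:16451657-16451659, minus strand) had 0, 0, 7 and 8 reads, with a lower limit of 3.45-fold (edgeR adjusted p = 2.3e-04). ZNF444, a SCAN domain protein ending in UAGC, had 0, 0, 10 and 7 reads, with a lower limit of 3.53-fold (edgeR adjusted p = 1.8e-04). These 3 had no untreated read, and both of their G418 libraries had several. ZNF410 (UGAG) had 0, 0, 5 and 6 reads, with a lower limit of 1.95-fold (edgeR adjusted p = 0.0034). With no untreated read, its fitted log2 fold change of 5.33 depends on the prior count. The call was lost with DESeq2 (4.37, adjusted p = 0.064) and with the replicate letter as a block (5.25, edgeR adjusted p = 0.063). It was also lost over the whole 3′UTR, where the log2 fold change fell to 2.10 (edgeR adjusted p = 0.056).

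ZNF503 (UGAG, chr10:75398749-75398751, minus strand) differed between its treated replicates. It had 1, 0, 23 and 3 reads, and its RRTS of 0.764, 0, 19.5 and 2.66% put G418 B far below G418 A although CDS density was alike (62.6 and 65.4 RPKM). The pooled rise was 22.4-fold, with a counting interval of 3.68 to 919 (edgeR adjusted p = 5.9e-05), and the fitted log2 fold change of 4.20 was 6.502 without untreated A, 3.71 without untreated B and 4.98 without G418 B. ZNF703, its relative with a UAAC stop, had 2, 1, 10 and 11 reads and 11.1 and 12.5% RRTS with G418 in close replicates, a 5.85-fold rise (1.75 to 30.6, edgeR adjusted p = 0.0048). Another 3 members, all with the KRAB pattern, were also called higher, each from at most 2 untreated reads. ZNF543 (UGAA) had 0, 1, 6 and 6 reads, ZNF689 (UAGA) 1, 0, 5 and 7, and ZNF460 (UAAC) 1, 1, 9 and 3, with edgeR adjusted p of 0.016, 0.012 and 0.033. DESeq2 called none of these 3 (adjusted p of 0.14, 0.11 and 0.22) and did not call ZNF703 (adjusted p = 0.075). The DESeq2 log2 fold changes of these 4 genes were 3.02, 3.31, 2.21 and 2.56, against 2.96, 3.06, 2.24 and 2.46 in edgeR. With the replicate letter as a block, edgeR called none of the 3 (adjusted p of 0.11, 0.093 and 0.10). ZNF460 was also lost without untreated A, at a log2 fold change of 1.45. Without untreated B, which held its untreated read, ZNF543 was at 5.65 against 2.96.

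In 2 of the 13 the rise did not pass. ZNF24 (UAAG, chr18:35337232-35337234, minus strand), next to ZNF207 in CDS density, had 2, 0, 8 and 3 reads and 9.06 and 4.02% RRTS with G418 (4.29-fold, 0.937 to 39.9, edgeR adjusted p = 0.065). ZNF212 (UAAG) had 4, 1, 7 and 5 reads and started from 18.7 and 10.5% RRTS in untreated cells, above the other 12 when pooled, and reached 32.1 and 28.7% (1.89-fold, 0.620 to 6.85, edgeR adjusted p = 0.30). The libraries of the groups did not overlap for either gene, and both counting intervals include equal RRTS.

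ZNF207 had almost no readthrough reads. Although it had 26.2 and 25.5% of the members' expected reads in the G418 libraries, it held 1, 2, 2 and 0 reads, where 379, 149, 314 and 270 would be present at the CDS density. Its RRTS was 0.264, 1.34, 0.638 and 0%. Its NTC, a UAGG at chr17:32373407-32373409 (plus strand), has the same 4 nt as that of ZNF282, which reached 33.2% pooled over the G418 libraries. In GENCODE 44 this NTC is the stop codon of 1 of 5 coding transcripts of ZNF207, and that of ZNF282 of 1 of 2. In 3 of 55 members the NTC is the stop codon of less than 50% of the coding transcripts. ZNF207 is the sole member of 55 with an exon after the one that holds the stop codon. Whether other transcripts carry the CDS reads was not tested. Left out, ZNF207 brought the members' aggregate RRTS to 27.4 and 24.3% with G418.

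**Figure D4:**
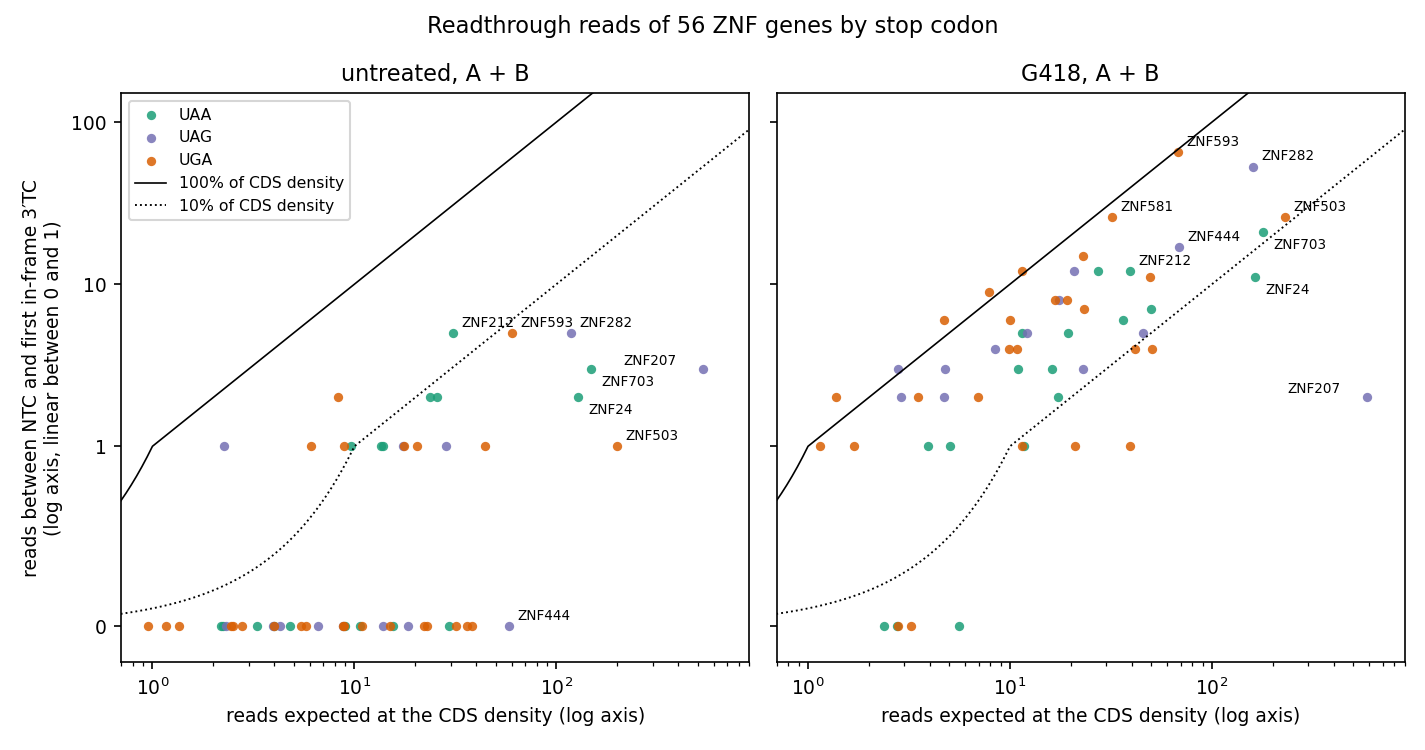
Reads between NTC and first in-frame 3′TC against the reads expected at the CDS density (log axes, the y axis linear below 1), 1 point per ZNF gene, pooled over replicates and coloured by stop codon, with lines at 100 and 10% of CDS density. With G418, ZNF593 (65 reads) lies near the 100% line and ZNF207 (2 reads, 584 expected) far below the 10% line.

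The members were divided among stop codons much like other transcripts, with 17 UAA, 13 UAG and 26 UGA (30.4, 23.2 and 46.4%, against 28.6, 21.8 and 49.6%). UAGG ended 8 of them (14.3%, against 6.26%), and UAGU none (3.06% of others). With G418 the aggregate RRTS was 37.0 and 26.9% for UGA, 16.5 and 13.2% for UAA and 10.7 and 14.5% for UAG. In the other transcripts it was 22.3 and 21.3% for UGA, 9.13 and 8.52% for UAA and 15.2 and 14.7% for UAG. Single genes set these values. Without ZNF593, UGA members were at 31.1 and 19.2%, and without ZNF503 at 45.3 and 39.3%. Without ZNF207, UAG members were at 26.9 and 36.6%, above UAA in place of near it. In untreated cells UAA members were at 3.31 and 4.22%, from 11 and 6 reads, against 1.41 and 1.23% for UAG and 2.26 and 2.12% for UGA. Without ZNF207, UAG members were at 3.70 and 1.07% there, so that the order of UAA and UAG turned in untreated A.

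**Figure D5:**
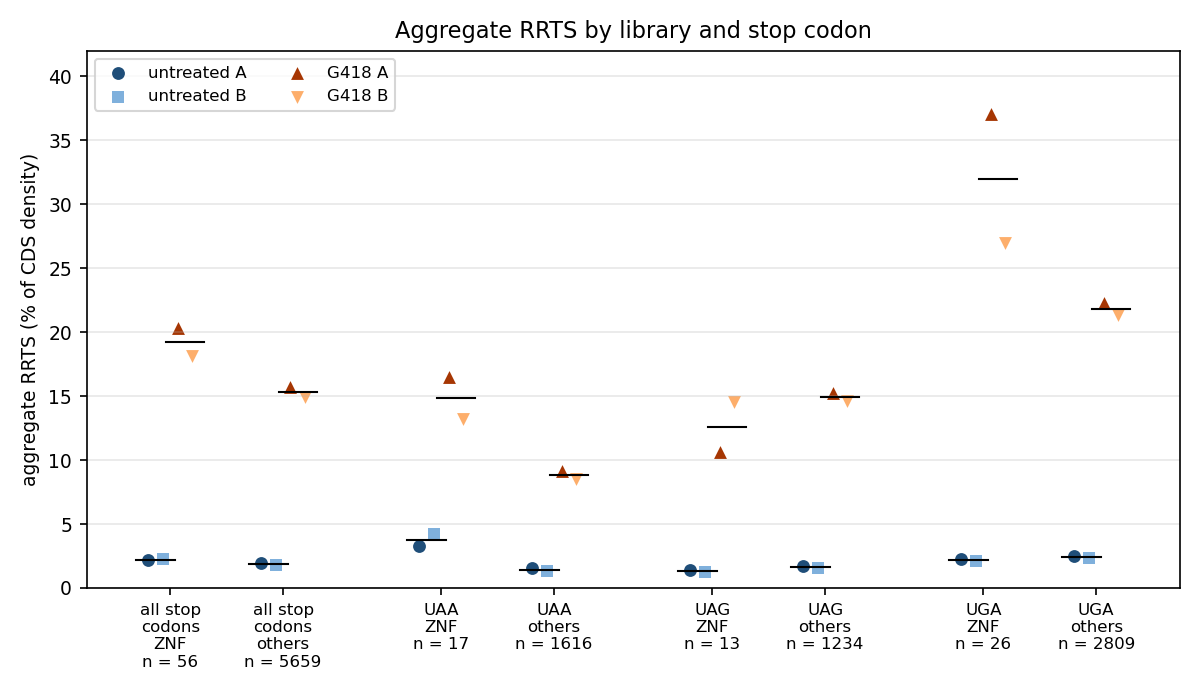
Aggregate RRTS (% of CDS density) in each library for the ZNF genes and for the other transcripts with the same minimum, over all stop codons and by stop codon, with lines at the means of each pair. Untreated libraries lie at or below 4.22% and G418 libraries at 8.52% or more in every set, and the ZNF UGA replicates are the widest apart (37.0 and 26.9%).

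KRAB members had few reads. The 13 members with the KRAB pattern had an aggregate RRTS of 3.02, 7.06, 39.1 and 28.04%, from 3, 3, 37 and 22 readthrough reads. The 43 without it, which include ZNF207, were at 2.08, 1.88, 18.7 and 17.3%, from 25, 10, 206 and 170 reads. The 5′UTR reads per 100 CDS reads of the 13 were 9.06, 8.59, 10.5 and 10.5, against 8.89, 9.06, 9.54 and 9.26 for the 43. No test of either difference was made.

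The 159 ZNF genes listed in all libraries but under the minimum were set apart by their low CDS counts. Since CDS reads are also the denominator of RRTS and of the 5′UTR share and enter the CDS test, their values are a description. Their aggregate RRTS was 6.26 and 4.10% in untreated cells and 24.1 and 24.2% in G418-treated cells, a 4.66-fold ratio of means, and their 5′UTR reads per 100 CDS reads were 22.04, 24.5, 23.2 and 25.1. Both untreated values lay above those of the members, as did the density beyond the 3′TC (0.690 and 0.627% of CDS density). Of the ZNF genes under the minimum, 152 entered the test of CDS reads and 2 were higher, ZNF664 and ZNF775, with 0 lower, where 5.31% of all transcripts were higher and 3.21% lower. At an unadjusted p under 0.05, 9 were higher and 5 lower, where 1079 and 861 of all 8494 were. ZNF664 had CDS counts of 84, 36, 190 and 157 and a log2 fold change of 1.15 (SE 0.17, edgeR adjusted p = 4.7e-05). Like ZNF146, it had more 5′UTR than CDS reads, with 317, 127, 462 and 377, and its 5′UTR share fell from 377 and 353 to 242 and 239 per 100 CDS reads (log2 fold change -0.60, SE 0.13, edgeR adjusted p = 0.040).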

How the data were processed

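The deposited tables hold 1 transcript per gene with RPFs of 28 to 35 nt. Per the study's methods and the submitters' processing notes (CASAVA 1.8, STAR, hg38), the authors removed duplicates by molecular identifiers, trimmed adapters, discarded noncoding RNA reads and aligned the rest with GENCODE 30 guiding splicing. A read mapping to several places kept a single alignment, so reads of near-identical zinc finger paralogs are uncertain between them. The deposited counts are unnormalized RPFs per region, the deposited RPM values are scaled to mapped reads, and the deposited RPKM divides RPM by region length. The authors' ratio is RRTS, after leaving out 6 nt after the NTC. The deposited 5′UTR densities, a score, were not used. Every table held transcripts of at least 1.00 RPKM.

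Whole reads were recovered by dividing RPM by its smallest step. All values (100% within 0.01) were whole, and CDS counts were these reads or 1 less (100% of members in G418 A, 25.0% in G418 B, none in untreated cells). CDS counts were tested with edgeR 4.0.16 (quasi-likelihood, TMM, filterByExpr). 5′UTR reads (at least 20) and readthrough reads (at least 10, with 128 mRNA reads per condition) were tested with an offset of log(CDS reads + 0.5). All tests were fitted over all transcripts, at a Benjamini-Hochberg adjusted p of 0.05. Expected reads are the CDS density times the region length. Exact permutation of 2 against 2 libraries cannot pass the threshold and was not used, and p-values measure only the spread between these replicates. Replicates share letters without a stated pairing, and the main fits have no block. DESeq2 1.42.0, the replicate block, other minimums, scalings and regions, and each replicate left out were alternatives. R 4.3.3, Python 3.11.15, scipy 1.17.1 and matplotlib 3.10.9 were used. Stop codons, fingers and upstream AUGs came from GENCODE 44, a later release than that of the authors, where 55 members had the same CDS length and stop codon and 42 also the same UTR lengths. The KRAB pattern was phenylalanine or leucine, any residue, aspartate and valine, then 7 residues, glutamate and tryptophan. No sequence is printed for ZNF703.

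The members and gene lists were chosen with earlier results of these data known. Named genes are the 5 members with the highest mean RPKM, members called for each readout, the 3 with the highest 5′UTR share, the 5 with the most readthrough reads, those beside the minimum, and listed genes passing the CDS threshold. ZNF207's readthrough, ZNF574, ZNF410, TRIM28, ZNF622 (for its CDS change), ZNF24, ZNF212, ZNF664, ZNF775 and the members without readthrough reads were named after their values were seen.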

Additional observations from a re-analysis of the deposited data

How the results depend on the processing

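The fitted log2 fold change of no called member changed sign among the alternatives, but the numbers of members called did move. For CDS reads, where 2 members were higher and 0 lower, DESeq2 called 0 higher, where it called 113 of 8568 transcripts higher. A minimum of 100 CDS reads for membership left 1 of 26 higher. More were called lower without either untreated library, among the members and among all transcripts. The members' median log2 fold change was -0.13 without untreated A and -0.05 without untreated B. It was -0.08 without G418 A and -0.13 without G418 B. The medians of all transcripts in these 4 fits were 0.007, 0.007, -0.003 and 0.002. Scaled by library totals, 3 members were higher and 0 lower, and of all transcripts 800 were higher and 140 lower, against 451 and 273 with TMM. With a library left out, the lone library of an arm is assumed to vary like the other arm. The 5′UTR call of ZNF146 was lost with DESeq2 (0, at the same log2 fold change of -0.58), and with a minimum of 100 CDS reads ZNF146 is no member, which left 0, with 0 to 1 lower when 1 library was left out (0 without either G418 library). It was joined by another gene (2) with a minimum of 25 CDS reads or with the minimum not applied to untreated B, an alternative chosen after seeing the data.

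The count of 11 of 13 members with higher readthrough became 6 of 13 with DESeq2, where 1408 of 2827 transcripts were higher. It was 17 of 29 with a minimum of 5 reads, where 2701 of 4076 transcripts were higher. With a minimum of 100 CDS reads it was 6 of 7. With 1 library left out, fewer members reached the minimum of 10 reads. These were 7 without untreated A, 11 without untreated B, 3 without G418 A and 8 without G418 B. The aggregate RRTS in untreated and G418-treated cells was 2.81 and 20.8% with a minimum of 25 CDS reads, 1.79 and 15.8% with 100, 2.09 and 16.8% without ZNF593, 1.89 and 15.95% for members with the mRNA read minimum met in each library, 3.89 and 38.7% as a mean of single genes, and 0.405 and 1.66% over the whole 3′UTR. After seeing the data it was also computed without ZNF207 (2.76 and 25.8%) and, for untreated cells, with the minimum not applied to untreated B (2.65%).

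The summed CDS RPM in untreated and G418-treated cells was 3077 and 3049 with a minimum of 25 CDS reads, 2017 and 1946 with 100, and 2172 and 2157 without ZNF207. 5′UTR reads per 100 CDS reads were 11.3 and 12.1 with a minimum of 25, 6.04 and 5.98 with 100, where the order of the conditions turned, and 6.56 and 6.82 without ZNF146.

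The replicate letters are not stated to pair the cultures. Across 8494 transcripts the difference between A and B correlated at 0.136 between the conditions, over 2 letters only. With the letter as a replicate block, 2 members were lower in CDS reads, where 452 of 8494 transcripts were lower. In readthrough 7 of 13 members were higher, where 1852 of 2827 transcripts were higher. ZNF410, ZNF460, ZNF543 and ZNF689 were no longer called (edgeR adjusted p of 0.063, 0.10, 0.11 and 0.093).

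Depth limited the readthrough of single members. In 21 members fewer than 10 reads would be present at the full CDS density over both G418 libraries.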

Other observations

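The tables also held a ZNF gene under the minimum and genes of the other lists for which no rise in readthrough was called, although edgeR called 14 of 15 corepressor genes tested and 5 of 6 zinc finger genes under other names higher, where 82.6% of all transcripts were. ZNF302, the sole ZNF gene under the minimum with at least 10 readthrough reads, had 6, 2, 5 and 5 of them in untreated A, untreated B, G418 A and G418 B, in a region of 441 nt, and a log2 fold change of -0.20 (SE 0.78, edgeR adjusted p = 0.80). MAZ, a zinc finger gene under another name, had 7, 3, 11 and 8 reads (log2 fold change 0.73, SE 0.64, edgeR adjusted p = 0.27). CHD3, a NuRD ATPase from the corepressor list, had 7, 1, 7 and 3 (0.13, SE 0.77, edgeR adjusted p = 0.87), whereas TRIM28 had 3, 1, 63 and 52 and an RRTS of 0.559% rising to 13.7%. CHD3 also had slightly more 5′UTR than CDS reads in every library, between 101.6 and 102.9 per 100.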
